A study of Mus musculus with 8 samples.

Results

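The kinase GCN2 and the transcription factor ATF4 form a route by which mammalian cells sense a shortage of amino acids. Eif2ak4, the gene of GCN2, Atf4 and 8 of the best known ATF4 targets (Atf5, Atf3, Ddit3, Trib3, Chac1, Asns, Nupr1 and Ppp1r15a) were followed library by library in mouse leukaemia cells from recipients fed with or without leucine, isoleucine and valine, the branched-chain amino acids (BCAA). The 10 genes were chosen by symbol, and all 10 matched a row of the deposited table of 27179 genes. Of these, 9 passed the filter on low counts that left 13364 genes in the test, and Atf3 did not.

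The cells were acute myeloid leukaemia cells driven by the fusion gene MLL-AF9, with green fluorescent protein (GFP) driven by ubiquitin regulatory sequence and luciferase by the β-actin promoter, and the genotype label is WT. They came from 1 terminally ill mouse, were expanded in culture and were injected into unconditioned male recipients of 8 to 10 weeks of age, whose marrow was later sorted for living GFP+, 7AAD- cells. The BCAA-free group ate a diet lacking the BCAA (3 libraries) and the standard group a diet with all amino acids (5 libraries), and the labels call the libraries biological replicates. Both groups had been given 5+3 chemotherapy (5 daily doses of cytarabine, 100 mg/kg, and 3 of doxorubicin, 3 mg/kg, starting together), so no library here comes from untreated leukaemia. Sample names carry the bare word BCAA, which the title and design text of the study give as a BCAA-free diet. RNA was collected at the point of largest response to chemotherapy, and how long the diet had been given is not stated in the labels.

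As background, uncharged transfer RNA activates GCN2, which phosphorylates the translation factor eIF2. Protein synthesis as a whole then slows, while the ATF4 message is translated more efficiently, so that ATF4 protein can rise without a rise in Atf4 RNA. ATF4 pairs with other basic leucine zipper proteins on composite C/EBP-ATF sites and induces genes of amino acid supply, further transcription factors, and a feedback arm that restores translation. Kinases of other stresses converge on the same eIF2 site, and RNA counts report neither phosphorylation nor ATF4 protein.

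Library totals were 14851240 to 30306697 counts in the BCAA-free group and 16588662 to 38966911 in the standard group. Levels are given in CPM, a read count divided by the size of its library and put on a common scale. The 15 markers of the myeloid leukaemia summed to 11611 to 14392 CPM in BCAA-free libraries and to 13983 to 17924 CPM in standard-diet libraries, with 0 of 15 called by edgeR. Markers of other cell types also had counts, and whether these came from other cells or from the leukaemia was not tested. Mature neutrophil markers summed to 1719 to 6561 CPM in BCAA-free libraries and 855 to 6321 CPM in standard-diet libraries. Markers of B cells summed to 31.5 to 140 CPM in BCAA-free libraries and 11.3 to 21.5 CPM in standard-diet libraries, and Cd79a and Cd79b were called higher. Dendritic-cell markers summed to 40.1 to 147 CPM in the BCAA-free group and 20.6 to 41.8 CPM in the standard group. Stromal and endothelial markers summed to 22.0 to 53.1 CPM in the BCAA-free group and 6.97 to 18.7 CPM in the standard group. Of these lists 1 of 7 dendritic (H2-Ab1) and 1 of 5 stromal members (Cxcl12) were called higher, as was 1 of 12 macrophage markers (Cd163), while the macrophage sum was 259.6 to 369.5 CPM in BCAA-free and 341 to 430.5 CPM in standard-diet libraries. Mature neutrophil (12 tested), T and NK cell (12), erythroid (8), plasma cell (3) and megakaryocyte (2) markers had no called member, and of all markers Gp6 alone was at 0 in every library. In these bulk samples fewer cells of a type and less RNA per cell cannot be told apart.

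None of the 9 tested core genes passed the test between the diets, and for each of them except Eif2ak4 the SD was larger in the BCAA-free group. In edgeR's quasi-likelihood test 0 of 9 had an adjusted p under 0.05, beside 0.756% of all 13364 genes tested, and 0 of 9 in DESeq2 (beside 3.05% of its genes) and in limma-voom (0.636%). By direction, 0.217% of all genes were higher and 0.539% lower in edgeR. At an unadjusted p under 0.05 there were 2 in edgeR (Atf5 and Ppp1r15a), beside 13.5% of all genes. The fitted log2 fold change, BCAA-free over standard diet, was positive for 7 and negative for 2, with a median of 0.46 against 0.02 over all tested genes, 52.6% of which were positive. For each of the 10 genes the range of the 3 BCAA-free libraries overlapped that of the 5 standard-diet libraries. Groups that did not overlap were thus found for 0 of the 9 tested genes, beside 8.84% of all tested genes. The 9 genes are too few to tell that count from this share. Without BCAA-free replicate 3 the balance turned, with 3 positive and 6 negative values and a median of -0.13. Without BCAA-free replicate 2 it was 1.00 with 8 positive values, in limma-voom 0.16 with 6, and with a replicate block 0.10 with 5. In the fits that each left out 1 library 0 of 9 were called again, beside 0.38%, 0.235% and 0.972% of all genes without BCAA-free replicates 1, 2 and 3, and 0.574%, 0.393%, 0.688%, 0.415% and 0.4% without standard-diet replicates 1 to 5.

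**Figure D1:**
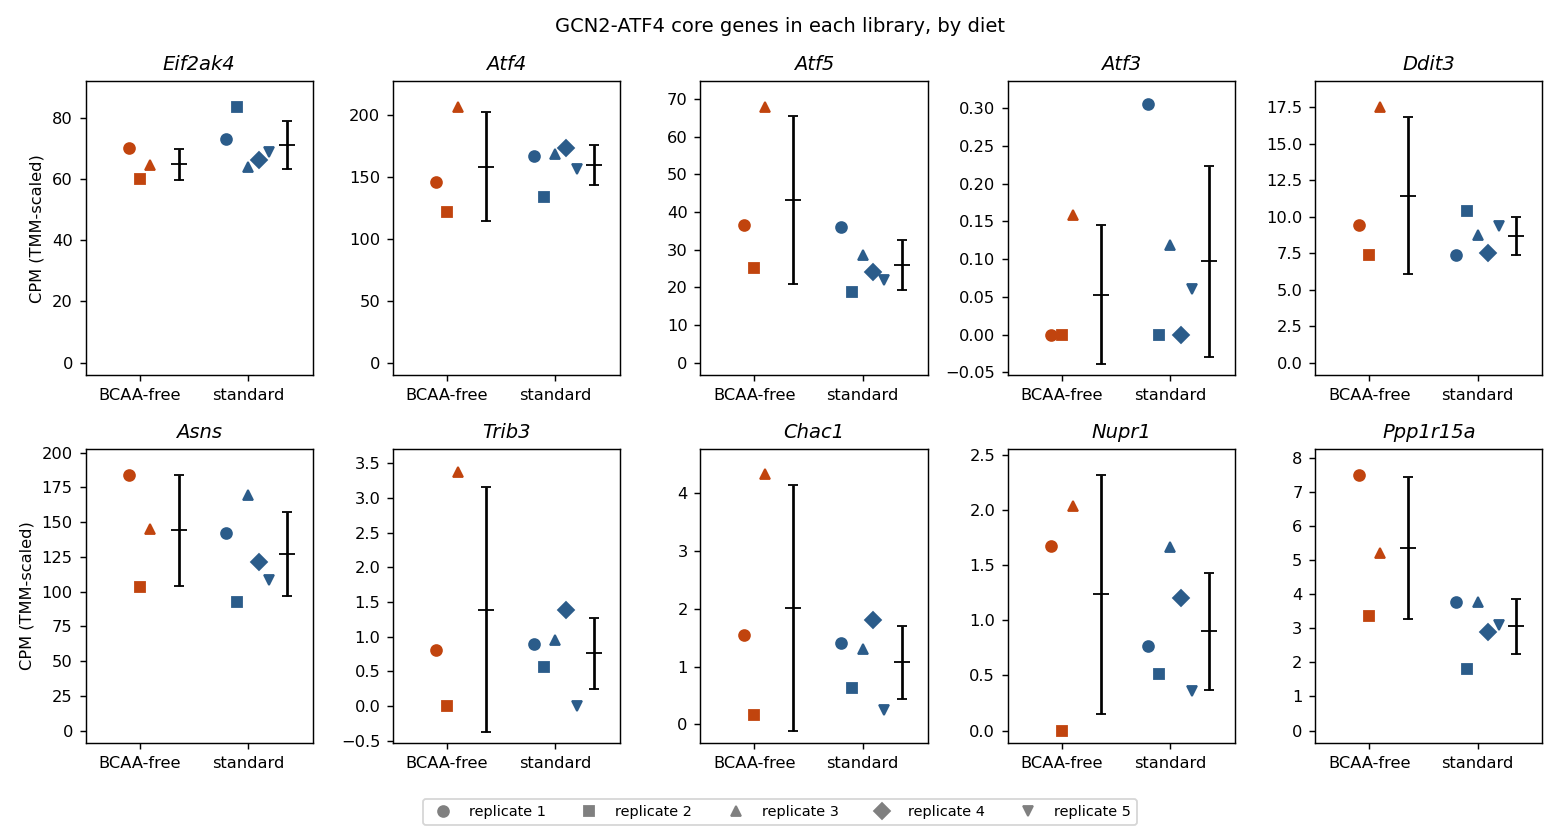
Normalised read count (CPM, TMM-scaled library sizes) of each core gene, with the BCAA-free group left of the standard-diet group; each point is 1 library, its shape gives the replicate number, and the black bar is the mean with its SD (n = 3 and n = 5). BCAA-free replicate 3 (triangle) is the highest library for Atf4, Atf5, Ddit3, Trib3, Chac1 and Nupr1, and the groups overlap in all 10 panels.

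Levels were compared between genes per length, as CPM per kilobase of exon (RPKM) averaged over the 8 libraries. Atf4 was the most abundant of the 10 at 92.2 ± 15.3 RPKM (SD, n = 8), above 94.6% of the tested genes with a known exon length. Asns followed at 61.6 ± 15.1 RPKM and was below Atf4 in 7 of 8 libraries, so that the pair did not separate fully. Atf5 (16.2 ± 7.87 RPKM), Ddit3 (10.9 ± 3.76) and Eif2ak4 (9.47 ± 0.995) formed a middle tier in which the ranges overlapped, and Asns stood above Atf5 in all 8 libraries. Ppp1r15a (1.34 ± 0.592 RPKM), Nupr1 (1.24 ± 0.878), Chac1 (0.871 ± 0.807) and Trib3 (0.492 ± 0.528) were low and overlapped, although Chac1 exceeded Trib3 in each library. Atf3 was last at 0.0374 ± 0.0511 RPKM.

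Eif2ak4, the sensor kinase (gene 27103, GRCm38 chromosome 2 from 118388583 to 118475234), was the steadiest of the 10. It had 70.02, 60.02 and 64.4 CPM in BCAA-free replicates 1 to 3, against 73.03, 83.6, 64.02, 66.1 and 68.9 CPM in standard-diet replicates 1 to 5. Its mean was 64.8 ± 5.01 CPM in the BCAA-free group and 71.1 ± 7.76 CPM in the standard group (SD), a log2 fold change of -0.13 (SE 0.12, adjusted p = 0.661). The 95% interval of the fold, 0.766 to 1.08, bounds any diet difference in this transcript more tightly than for any other of the 9. The related kinases gave no call either. PERK (Eif2ak3), which senses stress of the endoplasmic reticulum, was at 13.2 ± 1.07 RPKM in BCAA-free and 11.4 ± 0.651 RPKM in standard-diet libraries (adjusted p = 0.406). The haem-regulated kinase HRI (Eif2ak1) was at 24.7 ± 1.03 and 23.1 ± 1.75 RPKM in the same order, and the RNA-activated kinase PKR (Eif2ak2) at 26.5 ± 9.44 and 31.2 ± 2.25 RPKM. By RNA per length GCN2 was thus the least abundant of the 4 kinases in both groups. Of 10 genes for eIF2 kinases and their cofactors 0 were called by edgeR or DESeq2, beside 0.756% and 3.05% of all genes. An unadjusted p under 0.05 was found for 0 of the 10, beside 13.5% of all genes, and the median log2 fold change was 0.01. Nck1, an adaptor protein, had the smallest p of that list, at 41.5 ± 9.38 CPM in BCAA-free and 51.9 ± 6.58 CPM in standard-diet libraries (adjusted p = 0.387), followed by Eif2ak3.

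Atf4 itself (gene 11911, chromosome 15 from 80255184 to 80257545) gave no call and a fold change near 1. It had 146, 121 and 207 CPM in the BCAA-free libraries, against 167, 134, 168, 173 and 156 CPM in the standard-diet libraries. The 3 BCAA-free libraries thus held both its lowest and its highest value, and their SD was 43.9 CPM around a mean of 158 CPM, against an SD of 15.8 CPM around 159.6 CPM on the standard diet. The log2 fold change was -0.01 (SE 0.15, adjusted p = 0.980), and the 95% interval of the fold ran from 0.800 to 1.23.

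Atf5 (gene 107503, chromosome 7 from 44812256 to 44816658) encodes a close relative of ATF4 that is translated under the same control. It had 36.4, 25.1 and 67.9 CPM on the BCAA-free diet, against 36.01, 18.8, 28.6, 24.2 and 22.0 CPM on the standard diet. Each BCAA-free library lay above the standard-diet median of 24.2 CPM, but standard-diet replicate 1 lay above BCAA-free replicate 2. The fitted difference was 1.67-fold (log2 fold change 0.74, SE 0.29, 95% interval of the fold 1.07 to 2.61) with an adjusted p of 0.311, and DESeq2 gave 0.0916. It shrank to a log2 value of 0.24 (adjusted p = 0.761) without BCAA-free replicate 3. Atf5 overlaps Nup62 by 571 bases and the strand setting of the counting is not given in the sources used here; reads of the pair may be shared. Nup62, a nuclear pore protein, averaged 124 ± 15.7 CPM in BCAA-free and 119.9 ± 10.6 CPM in standard-diet libraries and was also highest in BCAA-free replicate 3. The part of the overlap in the Atf5 values was not tested.

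Ddit3 (gene 13198, chromosome 10 from 127290793 to 127296291), which encodes the pro-apoptotic factor CHOP, stood out in 1 library. It had 9.39, 7.37 and 17.5 CPM on the BCAA-free diet, against 7.36, 10.4, 8.77, 7.50 and 9.37 CPM on the standard diet. BCAA-free replicates 1 and 2 lay within the standard-diet range and replicate 3 far above it. The log2 fold change was 0.41 (SE 0.26, adjusted p = 0.526) with all libraries and -0.05 (adjusted p = 0.965) without BCAA-free replicate 3. Its ends overlap Mbd6 by 77 bases and Mars1 by 71, neither of which was called, Mars1 with 133 ± 23.1 CPM in BCAA-free and 131 ± 14.0 CPM in standard-diet libraries. Mars1, too, was highest in BCAA-free replicate 3, at 158 CPM.

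Atf3 (gene 11910, chromosome 1 from 191170296 to 191183333), a stress-induced repressor of the same protein family, was close to absent. It had counts of 0, 0 and 5 in the BCAA-free libraries and of 12, 0, 3, 0 and 1 in the standard-diet libraries. A count of 0 allows up to 3 counts, which is 0.163 to 0.201 CPM in the libraries concerned, so a diet difference was not detectable at this depth. Among 22 tested basic leucine zipper partners of ATF4, including Atf4, Atf5 and Ddit3, 0 were called by edgeR or DESeq2. Of all genes 0.756% were called by edgeR and 3.05% by DESeq2. Of the 22, 5 had an unadjusted p under 0.05, beside 13.5% of all genes, and the median log2 fold change was 0.12. The smallest p values were those of Jund (15.5 ± 3.53 CPM in BCAA-free and 9.11 ± 2.02 CPM in standard-diet libraries, adjusted p = 0.147) and Fos (7.65 ± 1.35 and 3.59 ± 1.53 CPM in the same order, adjusted p = 0.173).

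Composite C/EBP-ATF sites are the sequence that ATF4 reads, and the promoter stretches that hold their core letters are shown as a description. The motif searched was TGATGNAA on both strands, where N is any base, in the 250 bases before each RefSeq start (GRCm38.p6); the 50 bases after the start, which the sequence table also holds, were left out of the counts. It occurred in 3.45% of 32851 promoter windows and in 3.91% of 27025 genes. All 10 core genes had a window, 12 windows in all, and 4 genes held a match before the start: Atf3, Chac1, Nupr1 and Asns. The stretches below run 5′ to 3′ on the strand of the gene, and capitals mark the match, which reads TTNCATCA where it lies on the opposite strand. The match starts 110 bases before the start of Atf3, 193 before Chac1, 110 before Nupr1 and 23 before Asns.
Atf3, chr1:191183400-191183479, minus strand: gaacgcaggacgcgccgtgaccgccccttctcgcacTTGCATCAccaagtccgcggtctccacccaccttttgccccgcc
Chac1, chr2:119351013-119351092, plus strand: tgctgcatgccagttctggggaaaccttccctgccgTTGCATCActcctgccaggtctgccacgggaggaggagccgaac
Nupr1, chr7:126625537-126625616, minus strand: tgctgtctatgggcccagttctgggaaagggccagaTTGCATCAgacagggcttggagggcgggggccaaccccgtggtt
Asns, chr6:7693210-7693289, minus strand: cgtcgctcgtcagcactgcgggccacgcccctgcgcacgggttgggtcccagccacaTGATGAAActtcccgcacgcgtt
Trib3 held a match after its start, at position 15, and so is not among the 4. The other 5 genes, Ddit3 and Atf5 among them, had no match on either side of the start in these windows, which says nothing of sites elsewhere. A match is a description of the letters and was not tested for binding.

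Asns (gene 27053, chromosome 6 from 7675165 to 7693209), asparagine synthetase, is the classical readout of amino acid shortage. It had 184, 103 and 145 CPM on the BCAA-free diet, against 142, 92.4, 169.8, 121 and 108 CPM on the standard diet. Its highest library was BCAA-free replicate 1 and not replicate 3, and the groups covered nearly the same range. The mean was 144 ± 40.2 CPM in the BCAA-free group and 127 ± 30.2 CPM in the standard group, with a 95% interval of the fold from 0.830 to 1.55 (log2 fold change 0.18, SE 0.21, adjusted p = 0.752). Per length, Asns reached 1.004 times the level of Atf4 in BCAA-free replicate 1, 0.681 times in replicate 2 and 0.559 times in replicate 3, against 0.552 to 0.804 times in the standard-diet libraries.

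Chac1 (gene 69065, chromosome 2 from 119351242 to 119354326), a glutathione-degrading enzyme, varied far more. It had 1.54, 0.163 and 4.33 CPM on the BCAA-free diet, against 1.40, 0.624, 1.31, 1.80 and 0.242 CPM on the standard diet. Within the BCAA-free group the highest library was 26.6 times the lowest, which rests on 3 counts in BCAA-free replicate 2, and within the standard group 7.44 times. The log2 fold change of 0.91 had an SE of 0.76 (adjusted p = 0.644), and its 95% interval of the fold, 0.615 to 5.74, contains both a fall and a large rise. Without BCAA-free replicate 3 the value was -0.36 (adjusted p = 0.935).

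Trib3 (gene 228775, chromosome 2 from 152337425 to 152344060), a pseudokinase that restrains ATF4 and the kinase AKT, was, like Chac1, highest in BCAA-free replicate 3 and next highest in standard-diet replicate 4. It had 0.805, 0 and 3.37 CPM on the BCAA-free diet, against 0.891, 0.567, 0.953, 1.38 and 0 CPM on the standard diet, from counts of 12, 0 and 106 and of 35, 10, 24, 23 and 0. Of its 118 BCAA-free counts 106 came from replicate 3. The log2 fold change was 0.90 (SE 1.03, adjusted p = 0.753, 95% interval of the fold 0.406 to 8.54), and -0.95 (adjusted p = 0.851) without that library. Its biological coefficient of variation of 97.0% was above the 57.1% that the trend gave at its abundance.

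Nupr1 (gene 56312, chromosome 7 from 126623246 to 126625470), a small stress-induced chromatin protein, had 1.68, 0 and 2.04 CPM on the BCAA-free diet, against 0.764, 0.511, 1.67, 1.2 and 0.363 CPM on the standard diet. BCAA-free replicates 1 and 3 were the highest of the 8 libraries and replicate 2 the lowest. The log2 fold change was 0.46 (SE 0.86, adjusted p = 0.865, 95% interval of the fold 0.389 to 4.85). The gene lies wholly within the long noncoding Gm39087, which the table does not list, so reads of both cannot be told apart.

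Ppp1r15a (gene 17872, chromosome 7 from 45522917 to 45526268) encodes GADD34, which brings a phosphatase to eIF2 and ends the response. It had 7.51, 3.36 and 5.22 CPM on the BCAA-free diet, against 3.77, 1.82, 3.77, 2.88 and 3.08 CPM on the standard diet. All 3 BCAA-free libraries were above the standard-diet median of 3.08 CPM, and BCAA-free replicate 2 was below the 2 highest standard-diet libraries. The fitted difference was 1.74-fold (log2 fold change 0.80, SE 0.35, 95% interval of the fold 1.04 to 2.90) and did not pass (adjusted p = 0.332). Unlike that of Atf5, it did not rest on BCAA-free replicate 3, without which it was 0.81 on the log2 scale (adjusted p = 0.465), whereas without BCAA-free replicate 1 it was 0.48 (adjusted p = 0.607). Its constitutive counterpart Ppp1r15b was abundant and was not called, at 311 ± 10.5 CPM in BCAA-free and 337 ± 24.1 CPM in standard-diet libraries. Among 17 genes of eIF2, its exchange factor and its phosphatase 0 were called by edgeR, beside 0.756% of all genes, with a median log2 fold change of 0.03. Of the 17, 2 had an unadjusted p under 0.05, Ppp1r15a and Ppp1cb, beside 13.5% of all genes. Eif2d, a noncanonical initiation factor, came next, at 62.6 ± 7.04 CPM in BCAA-free and 52.6 ± 4.48 CPM in standard-diet libraries (adjusted p = 0.382). Ppp1cb, a catalytic subunit of the phosphatase, averaged 456 ± 90.8 CPM in BCAA-free and 704 ± 119 CPM in standard-diet libraries (log2 fold change -0.63, SE 0.15, adjusted p = 0.0759). DESeq2 called it (adjusted p = 0.00458), beside 3.05% of all genes in that test.

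**Figure D2:**
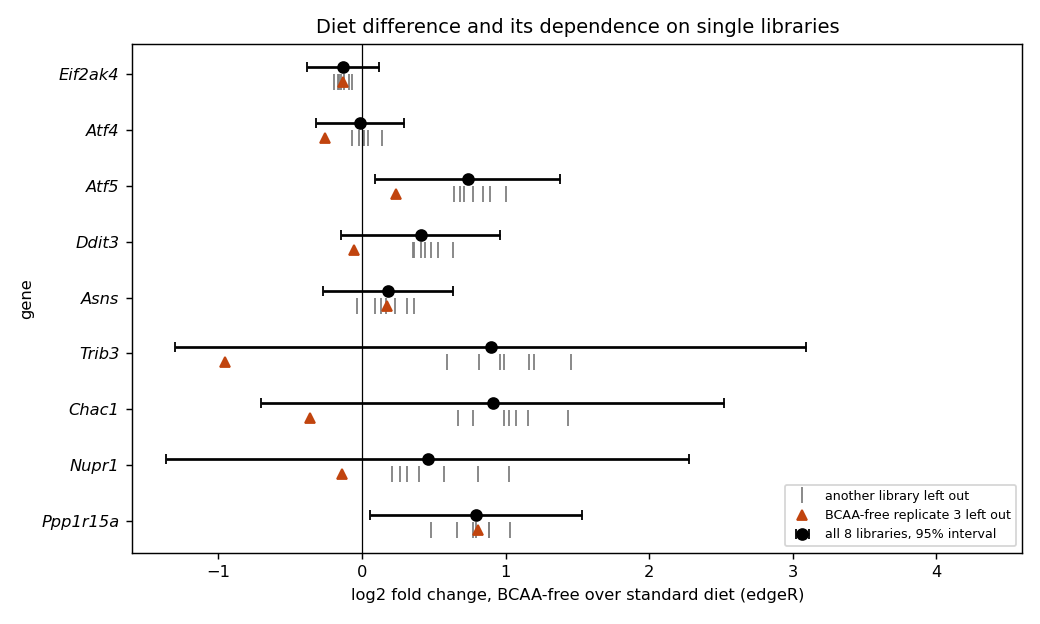
Log2 fold change of the 9 tested core genes, BCAA-free over standard diet, from edgeR; the dot and bar are the estimate and 95% interval with all 8 libraries, the triangle is the estimate without BCAA-free replicate 3, and the ticks are the estimates without each of the other libraries. Without BCAA-free replicate 3, Ddit3, Trib3, Chac1 and Nupr1 fall below 0 and Atf5 moves to 0.24, while Ppp1r15a stays at 0.81.

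Read by library, the pattern was as follows. For each gene, log2(CPM + 0.5) was set against its mean over the 8 libraries, and the median of these deviations over the 9 tested genes was 0.28, -0.33 and 0.87 in BCAA-free replicates 1 to 3. In standard-diet replicates 1 to 5 it was 0.09, -0.42, 0.10, -0.05 and -0.26. BCAA-free replicate 3 was the highest library for 6 of the 10 genes (Atf4, Atf5, Ddit3, Trib3, Chac1 and Nupr1), beside 17.9% of all tested genes. BCAA-free replicate 2 was the lowest for 4 (Eif2ak4, Atf4, Chac1 and Nupr1), beside 13.2% of all tested genes, and 0 of the 9 were above their mean there. Standard-diet replicate 2 was the lowest for Atf5, Asns and Ppp1r15a. The 2 libraries with the lowest medians therefore came from different diets.

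**Figure D3:**
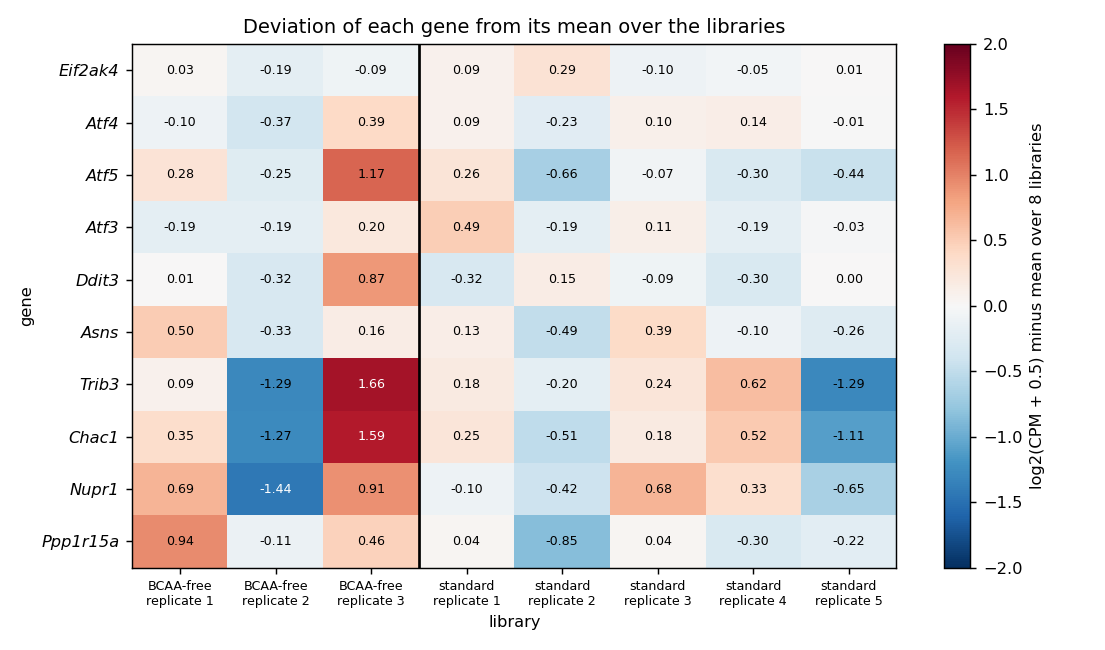
Deviation of log2(CPM + 0.5) of each core gene from its mean over the 8 libraries, with the 3 BCAA-free libraries left of the line and the 5 standard-diet libraries right of it; red is above and blue below the mean. BCAA-free replicate 3 is at 1.66 for Trib3 and 1.59 for Chac1, where BCAA-free replicate 2 is at -1.29 and -1.27, and Eif2ak4 stays within -0.19 and 0.29 in every library.

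Other measures also moved with these libraries, and their part in the result was not tested. BCAA-free replicate 3 had 30306697 counts, more than the other BCAA-free libraries, and a median deviation of 0.87. Standard-diet replicate 1 had 38966911 counts and a median deviation of 0.09. Erythroid markers summed to 58.4 CPM in BCAA-free replicate 3, against 9.64 and 24.3 CPM in the other BCAA-free libraries and 5.61 to 18.3 CPM on the standard diet. There were 8 tested erythroid markers and 0 calls among them. The heat shock gene Hspa1b was at 5.57, 18.9 and 42.5 CPM in BCAA-free replicates 1 to 3, against 1.15 to 5.22 CPM on the standard diet (adjusted p = 0.145). BCAA-free replicate 2, where the core genes were low, had the largest sums of B-cell (140 CPM), dendritic (147 CPM), T and NK cell (76.8 CPM) and mature neutrophil markers (6561 CPM) of the 8 libraries.

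The wider set of ATF4 targets followed a like order of libraries at a smaller size. Of 50 tested genes on that list, with no core gene among them, 1 rose and 0 fell in edgeR, beside 0.756% of all genes called. DESeq2 called 2, Phgdh and Ddit4, beside 3.05% of all its genes. Fitted values were positive for 40 and negative for 10, beside 52.6% positive over all genes, with a median log2 fold change of 0.16 against 0.02. A positive lean was not particular to this list. Values were positive for 19 of 22 p53 targets, 17 of 19 immediate early genes and 10 of 14 heat shock genes. Of 23 genes of the endoplasmic reticulum unfolded protein response, 10 were positive. At an unadjusted p under 0.05 there were 11, of which 10 were higher, beside 13.5% of all genes. The median deviation of the list was 0.10, -0.14 and 0.23 in BCAA-free replicates 1 to 3, and 0.04, -0.22, 0.09, -0.01 and -0.10 in standard-diet replicates 1 to 5. In BCAA-free replicate 3, 41 of the 50 were above their own mean, and in BCAA-free replicate 2, 13 were. Other stress lists were also high in BCAA-free replicate 3, with 13 of 14 heat shock genes above their mean (median deviation 0.31). So were 19 of 23 genes of the endoplasmic reticulum unfolded protein response (0.22). For immediate early genes it was 11 of 19, for p53 targets 11 of 22, and for all tested genes 6964 of 13364. The gene that rose, Phgdh, encodes the enzyme that opens the serine pathway and had 45.1, 35.3 and 34.1 CPM on the BCAA-free diet, against 20.3, 9.53, 21.6, 20.6 and 13.1 CPM on the standard diet. Unlike each core gene it had groups that did not overlap (4.17% of all genes were separated in that direction), and BCAA-free replicate 3 was its lowest BCAA-free library. Its log2 fold change was 1.16 (SE 0.23, adjusted p = 0.0281). With 1 library left out it passed 5 times of 8, and did not pass without BCAA-free replicate 1, where the adjusted p was 0.104, without BCAA-free replicate 2 or without standard-diet replicate 5.

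**Figure D4:**
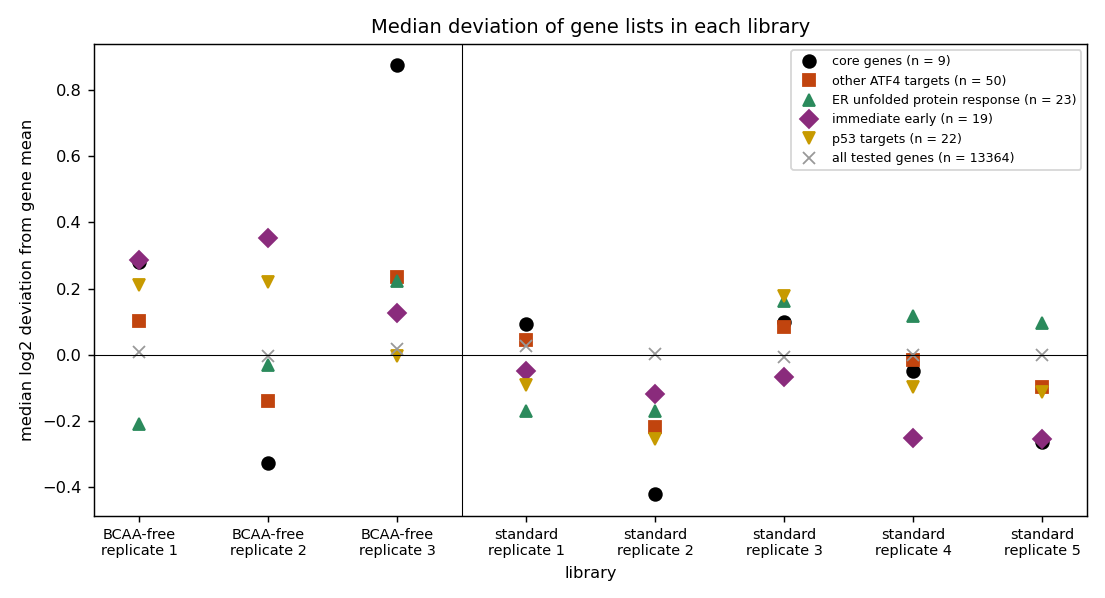
Median deviation of log2(CPM + 0.5) from each gene's mean over the 8 libraries, for the core genes, 4 other lists and all tested genes (n is the number of tested genes), with BCAA-free libraries left of the line. The core genes reach 0.87 in BCAA-free replicate 3 and -0.33 in replicate 2, while all tested genes stay within 0.03 of 0 and the immediate early list is above 0 in all 3 BCAA-free libraries.

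Neighbouring stress programmes were described for comparison, beside 0.756% of all genes called by edgeR and an all-gene median log2 fold change of 0.02. Of 23 genes of the unfolded protein response of the endoplasmic reticulum, which reaches ATF4 through PERK, 0 were called by edgeR or DESeq2, 2 had an unadjusted p under 0.05 (13.5% of all genes did), and the median log2 fold change was -0.03. Those 2 were Herpud1 (97.3 ± 33.8 CPM in BCAA-free and 66.1 ± 12.8 CPM in standard-diet libraries, adjusted p = 0.257) and Syvn1 (71.3 ± 23.7 and 51.0 ± 5.26 CPM, adjusted p = 0.205), both of the degradation branch. Each was highest in BCAA-free replicate 3, Herpud1 at 134 CPM and Syvn1 at 97.5 CPM, and the chaperone Hspa5 was at 1492, 1821 and 2201 CPM in BCAA-free replicates 1 to 3, against 1277 to 2110 CPM on the standard diet. Of 22 p53 targets 0 were called by edgeR and 2 by DESeq2 (Bax and Zmat3), with a median of 0.24 and 5 at an unadjusted p under 0.05, beside 3.05% and 13.5% of all genes. Bax, a pro-apoptotic p53 target, averaged 59.9 ± 10.9 CPM in BCAA-free and 41.9 ± 5.84 CPM in standard-diet libraries (adjusted p = 0.118). Zmat3, an RNA-binding p53 target, was at 46.1, 42.1 and 21.0 CPM in BCAA-free replicates 1 to 3, against 13.2 to 26.9 CPM in standard-diet libraries (adjusted p = 0.0898), and was lowest of the 3 in the library where Trib3 and Chac1 were highest. Of 19 immediate early genes 0 were called by edgeR or DESeq2 and 6 had an unadjusted p under 0.05, beside 13.5% of all genes, with a median of 0.48. Jund and Fos, given above, had its smallest p values. Of 14 heat shock genes 0 were called by edgeR and 2 by DESeq2 (Hspa1a and Hspa1b, near-identical genes whose reads may be shared), with 5 at an unadjusted p under 0.05, beside 3.05% and 13.5% of all genes, and a median of 0.23. Hspa1a averaged 4.42 ± 3.05 CPM in BCAA-free and 1.04 ± 0.725 CPM in standard-diet libraries (adjusted p = 0.0935).

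The genes whose levels followed those of Atf4 or Asns most closely within the groups were taken from the 9024 tested genes that averaged 10 CPM or more. Likeness was Pearson's r of log2(CPM + 0.5) over the 8 libraries after subtraction of each group's mean. It is given as a description over few libraries, which differ in depth and were sorted in the same way. Nearest to Atf4 were Snrpg (r = 0.978), Fxyd5 (0.976) and Cox7a2 (0.975), and Atf5 ranked 45 of the list with r = 0.917, while Asns had 0.530. Nearest to Asns were Smyd5 (r = 0.972), Nomo1 (0.961) and Cs (0.961), with Atf5 at 0.601. Eif2ak4 followed neither, at -0.25 with Atf4 and -0.18 with Asns.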

How the data were processed

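Per the labels' protocols, polyadenylated RNA went through the Kapa mRNA HyperPrep protocol and was sequenced from both ends. The deposited table holds raw counts per Entrez gene and library, which the authors did not normalise. The submitters' processing notes name featureCounts, Cell Ranger and mm10 without a role. Aligner, strandedness and handling of multiply mapping reads: not given in the sources used here. Symbols came from RefSeq GRCm38.p6, which matched 25275 of 27179 identifiers, promoters from RefSeq of that build, and exon lengths from GENCODE M21.

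Counts were tested with edgeR 4.0.16 in R 4.3.3: TMM factors, the default filter (minimum count 10, minimum total 15), robust quasi-likelihood F test, diet as the single term, all 8 libraries, and Benjamini-Hochberg adjustment over 13364 genes at 0.05. Fold changes are BCAA-free over standard diet. SEs were derived from the fold change and its F statistic, and 95% intervals use the fitted degrees of freedom. CPM and RPKM use TMM-scaled library sizes, except that marker sums use unscaled totals. Mean ± SD is over 3 BCAA-free and 5 standard-diet libraries. Floors of 3 counts cover counting error only. The 10 genes and the other lists were chosen with earlier results of these data known, so no p was adjusted over a list and no set test was run. All 10 genes were named, with the called members of each other list or else the 2 with the smallest p. Hspa5, Ppp1r15b, Mars1, Nup62, Ddit4 and the other kinases were named after their values were seen. The alternatives were other scaling, no filter, DESeq2 1.42.0, limma-voom (limma 3.58.1), a non-robust fit, a replicate block and leaving out each library. Within groups, chi-square per degree of freedom between libraries was 20.3 to 66.0, so none was counted as a repeat. The labels say biological replicate without naming animals, so p-values measure the spread between these libraries.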

Additional observations from a re-analysis of the deposited data

How the results depend on the processing

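No core gene was called under any of the 15 alternatives. Leaving out each library in turn gave log2 fold changes of -0.26 to 0.14 for Atf4, -0.054 to 0.63 for Ddit3, -0.95 to 1.46 for Trib3, -0.36 to 1.44 for Chac1, -0.032 to 0.36 for Asns and -0.14 to 1.02 for Nupr1. The lower end belonged to the fit without BCAA-free replicate 3, except for Asns, where it was the fit without BCAA-free replicate 1. Atf4, at -0.01 in the main fit, was at 0.037 with library totals and had the opposite sign in 6 of the 15 alternatives. Nupr1 was at -0.62 in limma-voom, where 6 of the 9 values were positive. The count over all genes, 101, was 237 with no filter, 376 in DESeq2 and 32 (without BCAA-free replicate 2) to 134 (without BCAA-free replicate 3) with 1 library left out. Among the other listed genes, where 1 was called, it was 3 with no filter, 7 in DESeq2, 2 in the non-robust fit and 0 to 3 with 1 library left out. The cause of these shifts was not tested.

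Replicate numbers 1 to 3 recur in both groups. Deviations of same-numbered libraries from their group means had correlations of -0.15, -0.02 and -0.37, and those of differently numbered pairs ranged from -0.17 to 0.32. Whether same-numbered libraries share a batch was not tested, and the labels name no batch. With the replicate block 0 of all genes were called by edgeR (899 at an unadjusted p under 0.05), 0 of the other listed genes, and the values were -0.21 for Trib3 and -0.23 for Nupr1. Replicate numbers 4 and 5 occur only on the standard diet, so the diet difference in that fit rests on replicates 1 to 3. Depth limits Atf3, Trib3, Nupr1 and Chac1, where 3 counts equal 0.0764 to 0.201 CPM.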

Other observations

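The secreted ATF4 targets named here were chosen after their values were seen. Fgf21, a stress hormone of the liver, had 0 CPM in all 8 libraries, where 3 counts would equal 0.0764 to 0.201 CPM. Gdf15, an appetite-suppressing stress cytokine, averaged 0.033 ± 0.0335 CPM in BCAA-free and 0.144 ± 0.259 CPM in standard-diet libraries, where its highest value was 0.605 CPM in replicate 5. Stc2, a secreted glycoprotein on the same list, averaged 7.82 ± 4.96 CPM in BCAA-free and 5.32 ± 2.03 CPM in standard-diet libraries.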
